A study of Mus musculus with 79 samples.

Results

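The 10 receptors described here are the mouse Toll-like receptors Tlr1, Tlr2, Tlr3, Tlr4, Tlr5, Tlr6, Tlr7, Tlr8, Tlr9 and Tlr13, each taken by its gene symbol in the annotation of the array. They are 10 of the 19505 genes that could be named, and every receptor had a single value per tumor and no missing value. Female C57BL/6J mice bore the mammary tumors, which were measured whole on 79 arrays, and the 3 tumor lines and 4 treatment groups give 12 sets of 4 to 8 tumors. The DIOSul mice were made obese on a diet with 60 kcal% fat and then received that diet with sulindac at 140 ppm, while the DIO mice stayed on the diet with 60 kcal% fat without drug. The ConSul mice received a lean control diet with 10 kcal% fat and then the same dose of sulindac in it, and the Con mice stayed on the control diet. Sulindac is a nonsteroidal anti-inflammatory drug that blocks COX1 and COX2. All mice were 8 to 9 weeks old at the start and 33 to 34 weeks old at euthanasia, and all received 20000 tumor cells in mammary fat pad 4. In the order DIOSul, DIO, ConSul and Con there were 7, 7, 6 and 6 tumors of metM-Wnt-lung, 7, 7, 4 and 7 of metM-Wnt-liver, and 8, 8, 6 and 6 of E0771. Each metM-Wnt line is a subclone of the M-Wnt line, itself derived from MMTV-Wnt1 mice, recovered from a lung or a liver metastasis. E0771 is a mammary carcinoma line of the same mouse strain that had been transduced to carry GFP and NanoLUC. Each line is therefore 1 clone or culture, so a difference between lines is one between these particular cultures.

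Toll-like receptors are sensors of microbial products and of nucleic acids or proteins released from damaged cells. Tlr1, Tlr2, Tlr4, Tlr5 and Tlr6 sit mainly in the plasma membrane, where Tlr2 pairs with Tlr1 or Tlr6 to bind lipoproteins, Tlr4 with its partner Ly96 binds lipopolysaccharide, and Tlr5 binds flagellin. Tlr3, Tlr7, Tlr8, Tlr9 and Tlr13 sit mainly in endosomes, where Tlr3 binds the RNA duplexes of viruses or dying cells, Tlr7 and Tlr8 recognize single-stranded RNA, Tlr9 binds unmethylated CpG DNA and Tlr13 binds bacterial ribosomal RNA. Tlr3 signals through Ticam1 and Tlr4 through both Ticam1 and Myd88, and the others use Myd88, with NF-kB and interferon regulatory factors at the end of the pathways. In tumors the receptors are best known from macrophages, monocytes, dendritic cells, neutrophils and B cells, and some carcinoma and stromal cells carry several of them.

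All values are the authors' normalized log2 signals. Levels of one receptor are compared between tumors, and not between receptors, because each has its own probes. The array medians lay between 6.285 and 6.805. The 6 metM-Wnt-lung Con arrays and the 4 metM-Wnt-liver ConSul arrays stood apart from the other metM-Wnt arrays. Their distance from the first to the 99th percentile was 13.13 to 13.38, against 12.88 to 13.08 in the other 41 metM-Wnt arrays and 12.77 to 13.2 in the 28 E0771 arrays. The 5 markers of mammary epithelium or carcinoma (Epcam, Krt8, Krt18, Krt14, Krt5) had group medians of their mean between 4.42 and 6.86. The lowest was that of metM-Wnt-liver DIOSul and the highest that of metM-Wnt-lung Con, and single tumors reached up to 10.50 (in metM-Wnt-lung DIO). As each marker has its own probes, these levels do not say how much carcinoma a tumor held, which was not tested. Array set and group cannot be told apart for these 10 tumors, and whether their group labels are right was not tested. Comparisons within the metM-Wnt lines that use them are set beside others whose differences do not. The fit of each line still held all its arrays, so these also enter the spread behind the p-values within that line. The comparisons between lines are also given for DIO and DIOSul arrays alone. In bulk tumors, fewer cells of a type and less RNA per cell cannot be told apart. The labels do not say whether tumors of a set came from more than one experiment, so the p-values measure the spread between these tumors.

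The tables of promoter sequences used here held 10 entries for 8 of the receptors, and none for Tlr4 and Tlr7. The 250 bases before each transcription start were searched on both strands for 3 short patterns. These were the core bound by the myeloid factor PU.1 (GAGGAA), an interferon response element (GAAA, any 2 bases, GAAA) and the NF-kB consensus. The PU.1 core was in 4 of the 10 entries, each of a different receptor, and 23.3% of 32851 mouse promoter entries of this length held it. Tlr1 had another entry, at chr5:64932700-64932949, without the core. Those 4 receptors, Tlr1, Tlr8, Tlr9 and Tlr13, are shown because they are among the 5 with a call between DIOSul and DIO tumors of E0771, and the fifth, Tlr7, had no entry. The NF-kB consensus was found in the promoters of Tlr2 and Tlr3, against 3.9% of all promoters, and Tlr3 is shown as the receptor with the widest span of group means. The interferon response element was found only in a Tlr6 promoter, as 2 overlapping matches, against 2.98% of all promoters. That Tlr6 entry and the Tlr3 entry shown lie inside the annotated spans of their genes, and so belong to internal transcription starts. Sequences are from RefSeq, build GRCm38.p6, written on the strand of the gene, with the matched letters in capitals. A match is a run of letters and not a measured binding site.
Tlr1 promoter, chr5:64933559-64933808, minus strand, PU.1 core 23 to 18 bases before the start: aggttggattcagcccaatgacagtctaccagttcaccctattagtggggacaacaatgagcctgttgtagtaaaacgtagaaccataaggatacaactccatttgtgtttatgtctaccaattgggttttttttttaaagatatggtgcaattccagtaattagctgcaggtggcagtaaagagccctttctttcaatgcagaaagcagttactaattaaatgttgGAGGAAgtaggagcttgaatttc
Tlr8 promoter, chrX:167264330-167264579, minus strand, PU.1 core on the opposite strand 77 to 72 bases before the start: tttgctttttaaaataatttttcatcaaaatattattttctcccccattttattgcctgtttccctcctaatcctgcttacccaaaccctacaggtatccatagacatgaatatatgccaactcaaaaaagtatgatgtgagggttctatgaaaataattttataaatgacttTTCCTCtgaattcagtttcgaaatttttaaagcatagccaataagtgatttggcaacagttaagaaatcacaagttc
Tlr9 promoter, chr9:106222348-106222597, plus strand, PU.1 core 112 to 107 bases before the start: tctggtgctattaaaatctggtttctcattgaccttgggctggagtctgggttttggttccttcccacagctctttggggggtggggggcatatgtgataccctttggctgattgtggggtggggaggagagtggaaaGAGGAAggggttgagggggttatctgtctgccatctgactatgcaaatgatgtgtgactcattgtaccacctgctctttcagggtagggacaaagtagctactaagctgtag
Tlr13 promoter, chrX:106143025-106143274, plus strand, PU.1 core 83 to 78 bases before the start: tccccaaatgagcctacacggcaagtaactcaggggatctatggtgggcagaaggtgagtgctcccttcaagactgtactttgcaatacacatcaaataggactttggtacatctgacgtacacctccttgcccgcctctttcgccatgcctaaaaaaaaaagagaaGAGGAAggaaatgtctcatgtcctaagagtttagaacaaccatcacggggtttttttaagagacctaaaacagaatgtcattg
Tlr3 promoter, chr8:45410381-45410630, minus strand, NF-kB consensus 211 to 202 bases before the start: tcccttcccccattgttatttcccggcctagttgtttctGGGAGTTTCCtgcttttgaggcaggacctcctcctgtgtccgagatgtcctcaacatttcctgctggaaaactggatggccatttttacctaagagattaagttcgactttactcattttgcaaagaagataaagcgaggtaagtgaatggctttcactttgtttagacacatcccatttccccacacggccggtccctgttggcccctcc

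Levels of the endosomal receptors spanned a wide range of group means over the 12 sets. Tlr3, on chr8:45395665-45411075, ran over 3.36 on the log2 scale, with 15.03 ± 0.15 in metM-Wnt-lung Con tumors at the top (SD, n = 6) and 11.67 ± 0.80 in E0771 DIO tumors at the bottom (SD, n = 8). Tlr9, on chr9:106222598-106226876, spanned 3.22, with 11.69 ± 0.52 in metM-Wnt-lung Con tumors (SD, n = 6) and 8.47 ± 0.90 in E0771 DIO tumors (SD, n = 8). The range was 3.05 for Tlr13 (chrX:106143275-106160493), 2.74 for Tlr7 (chrX:167303380-167330574) and 2.53 for Tlr8 (chrX:167241123-167264329). E0771 DIO was the lowest of the 12 sets for each of these 5 receptors. metM-Wnt-lung Con was the highest for 4 of them, and metM-Wnt-liver ConSul for Tlr8, so the top of each order belonged to an array set of wider spread.

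**Figure D1:**
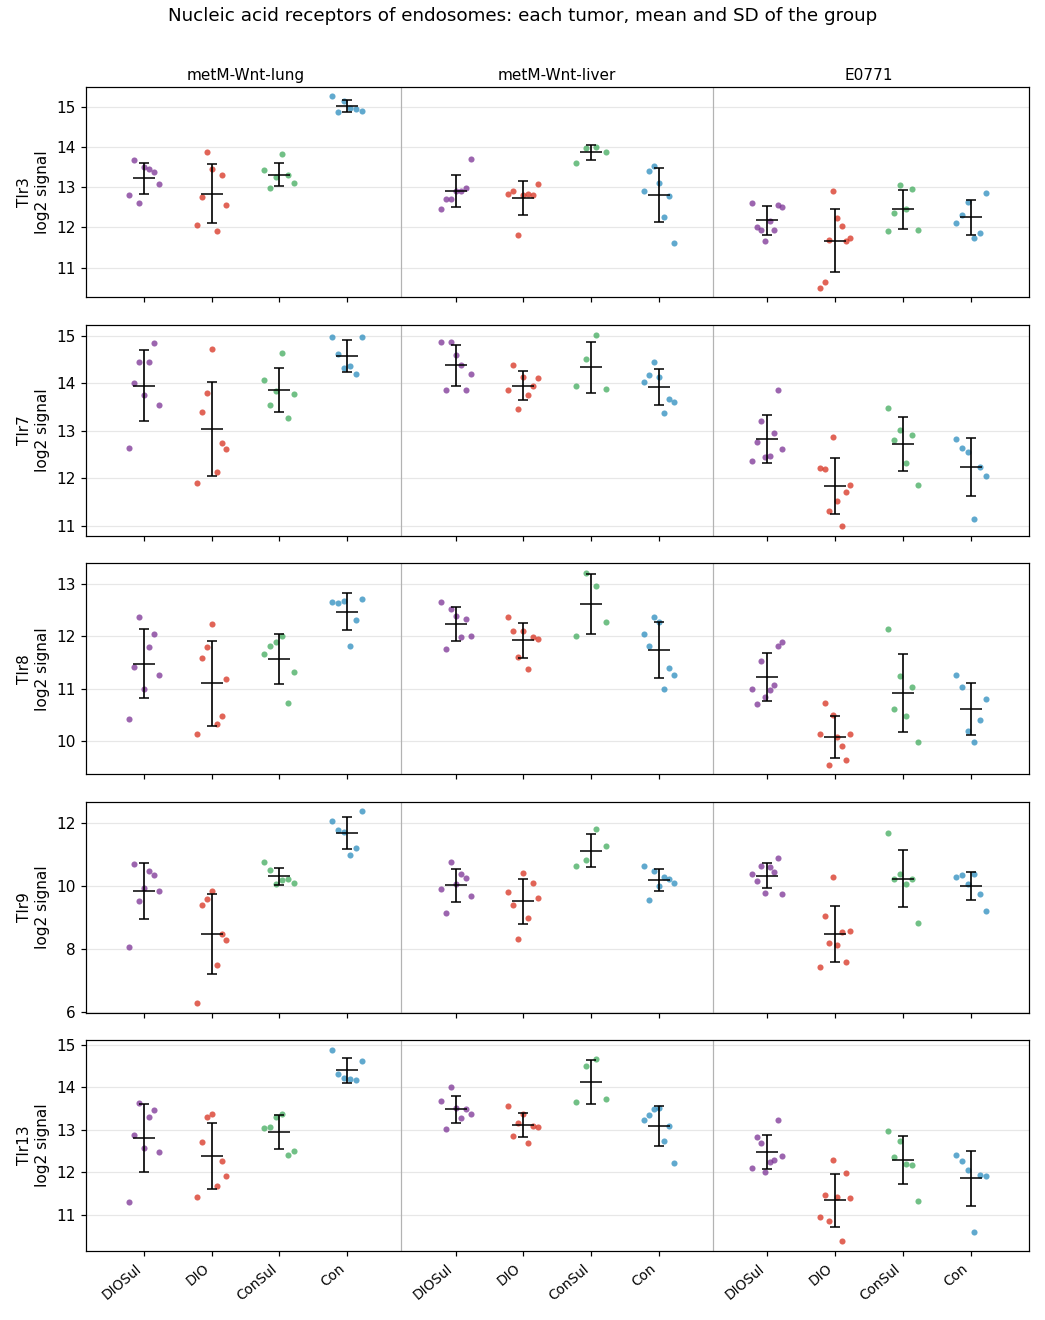
Log2 signal (y axis) of the endosomal receptors Tlr3, Tlr7, Tlr8, Tlr9 and Tlr13 in each of the 79 tumors, by line and group (x axis), with the mean and SD of each set. E0771 DIO tumors have the lowest mean in every panel, and metM-Wnt-lung Con tumors have the highest for Tlr3, Tlr7, Tlr9 and Tlr13.

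Among the surface receptors, Tlr2, Tlr4 and Tlr6 were ordered by tumor line. Tlr2 (chr3:83836272-83841824) averaged 12.70 to 13.69 in the metM-Wnt-lung sets, 13.04 to 13.35 in the metM-Wnt-liver sets and 10.70 to 11.04 in the E0771 sets. Tlr6 (chr5:64953092-64970942) averaged 7.86 to 8.44, 8.19 to 8.85 and 6.11 to 6.72 in the same order of lines. Tlr4 (chr4:66827551-66846581) averaged 12.78 to 13.22 over the 8 metM-Wnt sets and 11.59 to 11.96 over the 4 E0771 sets. For these 3 receptors and for Tlr3 and Tlr7, the 4 E0771 sets were the 4 lowest of the 12. Tlr1 (chr5:64924680-64933600) behaved otherwise, with 11.95 ± 0.30 in metM-Wnt-lung Con (SD, n = 6), 8.98 ± 0.89 in E0771 DIO (SD, n = 8), and E0771 DIOSul tumors, at 10.88 ± 0.20 (SD, n = 8), above 6 of the 8 metM-Wnt sets. Tlr5 (chr1:182954752-182976044) had means between 6.59 and 7.75, and no step between neighbouring sets in its order was larger than the SD.

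**Figure D2:**
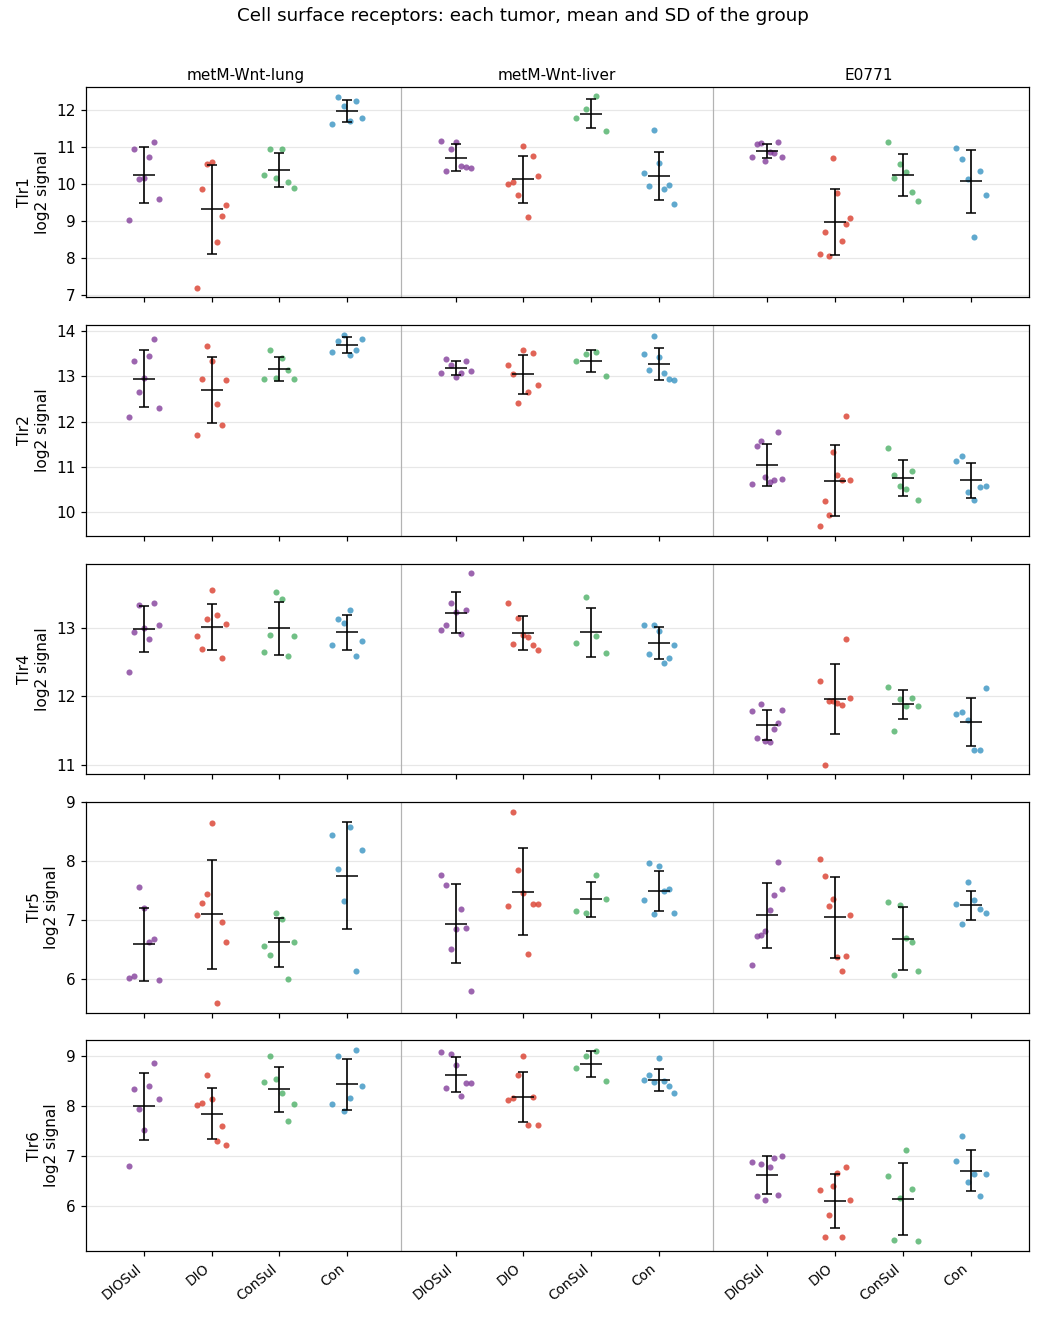
Log2 signal (y axis) of the surface receptors Tlr1, Tlr2, Tlr4, Tlr5 and Tlr6 in each tumor, by line and group (x axis), with the mean and SD of each set. For Tlr2, Tlr4 and Tlr6 the 4 E0771 sets lie below all metM-Wnt sets, whereas Tlr1 in E0771 DIO tumors lies below the other groups of its own line.

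Over all 10 receptors, the ordered sets gave 110 steps between neighbours, and 12 of them were larger than the larger SD of the pair. The largest was that of Tlr2 between metM-Wnt-lung DIO and E0771 DIOSul, at 1.66, the gap that separates the metM-Wnt sets from the E0771 sets. Tlr3 between metM-Wnt-lung Con and the next set, metM-Wnt-liver ConSul (1.15) and Tlr6 between metM-Wnt-lung DIO and E0771 Con (1.14) came next. The remaining 98 steps did not exceed that SD. It is a spread of single tumors and not an error of the means, and the order of neighbouring sets was not tested. E0771 DIO had the lowest mean for 8 of the 10 receptors. The exceptions were Tlr4, lowest in E0771 DIOSul, and Tlr5, lowest in metM-Wnt-lung DIOSul.

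The comparison of DIOSul with DIO tumors asks what sulindac was accompanied by in obese mice. In E0771 tumors 5 of the 10 receptors were higher with sulindac, namely Tlr1, Tlr7, Tlr8, Tlr9 and Tlr13, and none was lower. By limma with Benjamini-Hochberg adjustment over all genes, 5.03% of the 19505 genes were called at an adjusted p under 0.05 in this comparison. The median difference was 0.76 on the log2 scale over the 10 receptors and -0.02 over all genes. Among the called receptors, 4 are endosomal and Tlr1, the lipoprotein coreceptor of Tlr2, is a surface receptor.

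Tlr1 showed the largest difference. Its lowest, median and highest values were 10.61, 10.85 and 11.13 in DIOSul tumors and 8.05, 8.815 and 10.7 in DIO tumors (n = 8 each). A single DIO tumor reached into the DIOSul range and the other 7 lay below it. The difference was 1.91 (SE 0.32), a 3.75-fold higher signal, with a limma adjusted p of 0.00033.

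Tlr9, the CpG DNA sensor, ran from 9.75 through a median of 10.405 to 10.9 in DIOSul tumors and from 7.44 through 8.36 to 10.28 in DIO tumors. Of the DIO tumors, 7 of 8 lay below every DIOSul tumor, and all 8 DIOSul tumors lay above the DIO median. The difference was 1.86 (SE 0.33, limma adjusted p = 0.000687), or 3.64-fold.

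The RNA sensors differed less. Tlr8 had values of 10.7, 11.03 and 11.9 (lowest, median, highest) in DIOSul and 9.55, 10.105 and 10.72 in DIO tumors, a difference of 1.15 (SE 0.25, limma adjusted p = 0.00499). Tlr13 had 12.02, 12.345 and 13.23 in DIOSul and 10.38, 11.41 and 12.29 in DIO tumors, a difference of 1.14 (SE 0.27, limma adjusted p = 0.00941). Tlr7 had 12.36, 12.69 and 13.87 in DIOSul and 10.99, 11.79 and 12.87 in DIO tumors, a difference of 1.0 (SE 0.27, limma adjusted p = 0.0253). For each of these 3 receptors the groups overlapped, with 7 of 8 DIO tumors below all DIOSul tumors and all 8 DIOSul tumors above the DIO median.

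The other 5 receptors did not pass the test. Tlr3 differed by 0.50 (95% interval -0.04 to 1.04), Tlr6 by 0.52 (0.01 to 1.02), Tlr2 by 0.34 (-0.19 to 0.88) and Tlr5 by 0.03 (-0.50 to 0.56). Tlr4, the lipopolysaccharide receptor, had the opposite sign at -0.37 (-0.73 to -0.02, limma adjusted p = 0.243). All 8 DIOSul tumors lay below the DIO median of Tlr4, although the ranges overlapped. No receptor had groups that did not overlap at all in this comparison, a property of 1.06% of all genes.

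Macrophage markers moved with these receptors. Of the 8 macrophage markers measured, 6 were higher in DIOSul than in DIO tumors of E0771, among them Adgre1, the usual surface marker of mouse macrophages (1.80, SE 0.25), and the complement genes C1qa (1.70, SE 0.25), C1qb (1.45, SE 0.22) and C1qc (1.64, SE 0.27). The macrophage score, a mean of the markers centred on the line, ranged over 0.007 to 0.892 in DIOSul tumors and -1.466 to -0.105 in DIO tumors. All 5 T cell markers were higher as well, led by Cd3e (3.11, SE 0.47), as were 3 of 4 monocyte markers (median of the list 1.49, against 1.46 for the macrophage list). Lower in DIOSul were 2 of 5 neutrophil markers and the single red cell precursor marker measured (-2.94). With the macrophage score in the model none of the 5 calls remained, and the differences were 0.54 for Tlr1, 1.04 for Tlr9, 0.02 for Tlr8, -0.14 for Tlr13 and -0.46 for Tlr7. The score did not overlap between the groups, so this model compares them at scores that they do not share. It cannot decide why the calls were lost. Without the arrays high in muscle or skin genes, of which DIOSul had 3 and DIO had 0, 3 of the receptors were called. The share of all genes called in that fit was not kept.

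**Figure D3:**
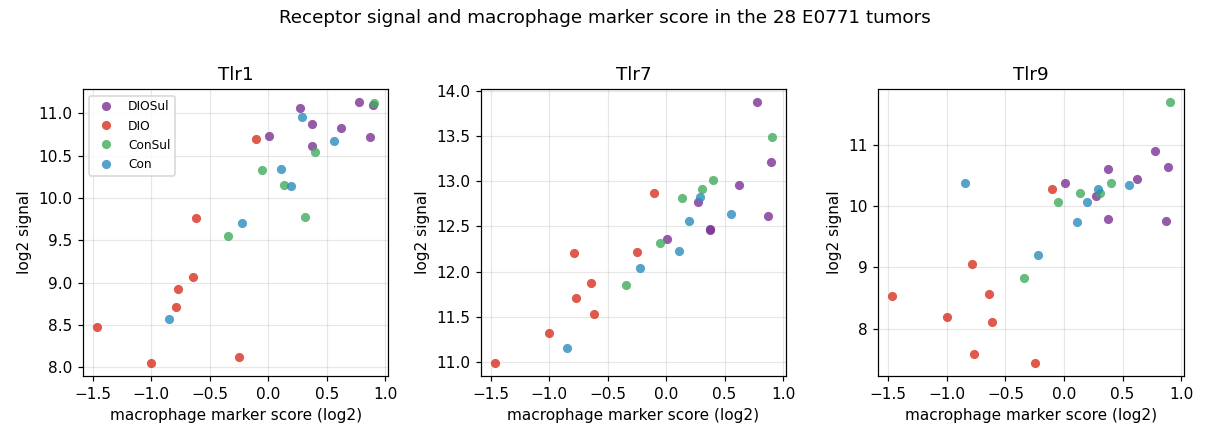
Log2 signal of Tlr1, Tlr7 and Tlr9 (y axis) against the macrophage marker score (x axis, log2 units around the line's mean) in the 28 E0771 tumors, colored by group. DIOSul tumors sit at scores of 0.007 to 0.892 and DIO tumors at -1.466 to -0.105, and the receptors are high where the score is high.

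The pathway around the receptors moved in part. Of 13 accessory and trafficking proteins, 3 were higher in E0771 DIOSul than in DIO tumors, which were Ctss, a protease that cleaves endosomal receptors (1.60, SE 0.23), Unc93b1, the chaperone that carries the nucleic acid sensors to endosomes (0.95, SE 0.22), and Slc15a4, an endolysosomal transporter required for Tlr7 and Tlr9 responses (0.59, SE 0.14). Of 16 adaptors and kinases, 3 were higher, namely Pik3ap1 (1.57, SE 0.24), Btk (1.22, SE 0.24) and Ticam2, the bridge between Tlr4 and Ticam1 (0.90, SE 0.26). Of 11 inhibitors, 3 were higher, which were Cd180 (2.29, SE 0.33) and its partner Ly86 (2.32, SE 0.28), a receptor pair that resembles Tlr4 and Ly96, and Irak3, a kinase family member that restrains signaling (1.13, SE 0.27). Rel, an NF-kB subunit, was the only one of 9 transcription factors called (0.66, SE 0.19).

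Of 18 target genes, 3 were higher and 1 was lower. Cd86 (1.28, SE 0.31) and Cd80 (1.05, SE 0.30) encode costimulatory proteins and Cxcl10 an interferon-induced chemokine (1.37, SE 0.35). Nfkbiz, an inducible NF-kB cofactor, was lower (-0.67, SE 0.16). The median difference of the 18 target genes was 0.37. The medians of the accessory proteins (0.07) and of the adaptors and kinases (-0.11) lay near that of all genes.

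The diet comparison without the drug, DIO against Con, had 1 call in E0771 tumors. Tlr9 was lower in DIO tumors, at 7.44, 8.36 and 10.28 (lowest, median, highest, n = 8), against 9.2, 10.165 and 10.37 in Con tumors (n = 6). All but 1 of the DIO tumors lay below every Con tumor. The difference was -1.53 (SE 0.36), with a limma adjusted p of 0.0149, where 5.17% of all genes were called. Tlr1, at -1.09 (SE 0.34), did not pass (limma adjusted p = 0.0604). With array weights in the fit 5 receptors were called, Tlr9 among them, but the share of all genes called in that fit was not kept. The differences of 9 of the 10 receptors were negative, with a median of -0.53 where that of all genes was 0.00, and Tlr4 was the exception at 0.34 (SE 0.19).

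Macrophage markers were again lower where the receptors were, with 5 of 8 called lower in DIO than in Con tumors of E0771, led by C1qa (-1.24, SE 0.27). Also lower were 3 of 4 monocyte, 3 of 5 T cell, 2 of 6 dendritic cell, 2 of 4 plasmacytoid dendritic cell and 2 of 4 fibroblast markers, while 2 of 5 neutrophil markers and the red cell precursor marker (2.88) were higher. The macrophage score overlapped between the groups, at -1.466 to -0.105 in DIO and -0.848 to 0.557 in Con tumors. With that score in the model the Tlr9 difference was -1.05 and its adjusted p was 0.174. Of the pathway genes, Ctss (-1.08, SE 0.24), Pik3ap1 (-1.27, SE 0.26), Ly86 (-1.56, SE 0.31) and Cd180 (-1.66, SE 0.35) were lower in DIO tumors. Ly96 (1.11, SE 0.31), Ticam1 (0.63, SE 0.17), Dusp1 (1.01, SE 0.26) and Nfkbiz (0.72, SE 0.17) were higher.

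Sulindac in lean mice gave no call in E0771. Between ConSul and Con tumors 0 of 10 receptors passed, nor did any other gene (0%), and 1636 genes but none of the receptors had an unadjusted limma p under 0.05. The receptor differences ran from -0.57 for Tlr6 to 0.49 for Tlr7. Between DIOSul and ConSul tumors, 0 of 10 receptors and 0.0974% of all genes were called, and Tlr1 differed by 0.64 (95% interval -0.07 to 1.34). The difference between the sulindac effects in obese and in lean mice was 1.73 for Tlr1 (SE 0.49), 1.63 for Tlr9 (SE 0.51) and 1.09 for Tlr6 (SE 0.38). None of the 10 was called (0.405% of all genes were). An unadjusted limma p under 0.05 was found for 5 of them and for 2791 of the 19505 genes. The limma adjusted p was 0.0895 for Tlr1 and 0.122 for Tlr9. This count was not stable, since array weights gave 2 calls and leaving out single arrays gave 0 to 2, with 1 call without Con replicate 4 and 2 without ConSul replicate 1 or DIO replicate 4.

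In metM-Wnt-lung tumors, DIO was far below Con for 7 of the 10 receptors, a comparison that rests on the Con arrays of wider spread and in which 27.4% of all genes were called. Tlr3 had 11.92, 12.75 and 13.89 (lowest, median, highest) in DIO tumors (n = 7) and 14.88, 14.975 and 15.28 in Con tumors (n = 6), without overlap. Tlr9 had 6.28, 8.46 and 9.83 in DIO tumors and 10.99, 11.76 and 12.37 in Con tumors, again without overlap. The differences were -2.18 for Tlr3 (SE 0.25), -3.21 for Tlr9 (SE 0.45), -2.64 for Tlr1 (SE 0.41) and -2.01 for Tlr13 (SE 0.33). These 4 receptors had groups that did not overlap, as did 6.92% of all genes. Tlr7 (-1.53, SE 0.37), Tlr8 (-1.37, SE 0.32) and Tlr2 (-0.99, SE 0.28) were also lower, with ranges that met. The limma adjusted p was 9.49e-07 for Tlr3, 1.16e-05 for Tlr9 and 0.00986 or less for the other 5. The median difference was -1.45 over the 10 receptors and 0.04 over all genes. Tlr4, Tlr5 and Tlr6 did not pass, here or in any other comparison within a line.

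The same Con tumors were high in several tissue markers. Of the macrophage markers 7 of 8 were lower in DIO than in Con tumors, as were 5 of 5 T cell, 5 of 5 adipocyte and 4 of 4 fibroblast markers. The macrophage score was -1.586 to 0.265 in DIO and 0.823 to 1.24 in Con tumors, and the adipocyte score was -3.61 to 3.716 in DIO and 1.814 to 8.526 in Con tumors. With the macrophage score in the model only Tlr3 kept its call (-1.34, limma adjusted p = 0.0452), and with the adipocyte and muscle scores again only Tlr3 did (-1.56, limma adjusted p = 0.047). The macrophage score did not overlap between these groups, so its model cannot decide why calls were lost.

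The difference of DIO and ConSul tumors does not use those Con arrays, but they share the fit and so enter its SE and p-values. It changes diet and drug together, and it was chosen after the data had been seen. Tlr9 was the only receptor called in metM-Wnt-lung (2.15% of all genes were called). Its 6.28, 8.46 and 9.83 in DIO tumors lay entirely below the 10.05, 10.215 and 10.75 of ConSul tumors, a separation found in 0.723% of all genes. The difference was -1.83 (SE 0.45), or 0.281-fold, with a limma adjusted p of 0.028. Tlr1 differed by -1.06 (SE 0.41, limma adjusted p = 0.231). None of the 8 macrophage markers was called here, while all 5 T cell markers were lower in DIO, led by Cd3d (-1.99, SE 0.34). With the macrophage score in the model Tlr9 kept its call (-1.26, limma adjusted p = 0.022). The call was lost with only these groups in the fit, with the adipocyte and muscle scores, without the arrays high in muscle or skin genes, and without any one of ConSul replicates 1 and 2 and DIO replicates 1, 5 and 7.

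Sulindac in obese mice gave no receptor call in metM-Wnt-lung, where 0.246% of all genes were called. Of the arrays compared, 5 of 7 DIOSul and 1 of 7 DIO arrays were high in muscle or skin genes. Tlr9 had 8.06, 9.94 and 10.71 in DIOSul tumors and 6.28, 8.46 and 9.83 in DIO tumors (n = 7 each). The difference was 1.37 (95% interval 0.49 to 2.25) with a limma adjusted p of 0.162. Tlr1 differed by 0.93 (0.12 to 1.75) and Tlr7 by 0.91 (0.18 to 1.64). These 3 were the receptors with an unadjusted limma p under 0.05, which 2298 of the 19505 genes had. The intervals of Tlr9 and Tlr7 hold the differences called in E0771 (1.86 and 1.0), and that of Tlr1 ends below the 1.91 of E0771. Those of Tlr8 (-0.27 to 1.02) and Tlr13 (-0.23 to 1.08) also end below the E0771 differences (1.15 and 1.14). Among the pathway genes, the T cell chemokine Ccl5 was higher (1.86, SE 0.34) and the AP-1 subunit Fos lower (-1.36, SE 0.25) in DIOSul tumors.

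Between ConSul and Con tumors of metM-Wnt-lung, which again involves the Con arrays of wider spread, 4 receptors were lower and 17.4% of all genes were called. The differences were -1.71 for Tlr3 (SE 0.26), -1.58 for Tlr1 (SE 0.43), -1.45 for Tlr13 (SE 0.34) and -1.39 for Tlr9 (SE 0.46), and the groups did not overlap for any of them, as for 7.66% of all genes. The macrophage markers went the same way, with 7 of 8 lower in ConSul, and so did all 5 adipocyte markers. With the adipocyte and muscle scores in the model 0 receptors were called. With the macrophage score only Tlr3 was called (-1.07, limma adjusted p = 0.0475), and Tlr1 (0.24) and Tlr9 (0.46) had the opposite sign. That score was -0.715 to 0.17 in ConSul and 0.823 to 1.24 in Con tumors. Without overlap, its model cannot decide why calls were lost or signs changed. Between DIOSul and ConSul, 0 receptors and 0.226% of all genes were called. The difference of the sulindac effects in obese and in lean mice was called for 5 receptors, all in the positive direction, against 8.99% of all genes, and contains the same Con arrays.

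metM-Wnt-liver tumors gave no receptor call in differences that do not use the ConSul arrays of wider spread, although those arrays share the fit. Between DIO and Con tumors 0 receptors and 0% of all genes were called (1045 genes had an unadjusted limma p under 0.05, Tlr9 among them). Tlr9 had 8.3, 9.61 and 10.42 in DIO and 9.54, 10.21 and 10.65 in Con tumors (n = 7 each), a difference of -0.67 (95% interval -1.23 to -0.10). Between DIOSul and DIO tumors 0 receptors and 0% of all genes were called, and 1470 genes had an unadjusted limma p under 0.05. The Tlr1 difference was 0.59 (0.02 to 1.15), that of Tlr6 was 0.45 (0.05 to 0.84), and that of Tlr9 was 0.50 (-0.06 to 1.07). All 7 DIOSul tumors lay above the DIO median of Tlr1, of Tlr6 and of Tlr4, although no group was separate from the other. Between DIOSul and Con, a comparison added after the data had been seen, 0 receptors and 0% of all genes were called (1312 genes with an unadjusted limma p under 0.05).

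The comparisons with the 4 metM-Wnt-liver ConSul tumors gave calls. Tlr1 was 11.78, 12.02, 12.36 and 11.41 in the ConSul tumors and had a lowest, median and highest of 9.46, 9.96 and 11.46 in the 7 Con tumors. The difference was 1.68 (SE 0.32, limma adjusted p = 0.00167). Tlr3 (1.07, SE 0.29), Tlr13 (1.04, SE 0.24) and Tlr8 (0.88, SE 0.26) were also higher, where 11.4% of all genes were called. Tlr3 and Tlr13 did not overlap between the groups, as 6.73% of all genes did not.

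Between DIOSul and ConSul tumors of metM-Wnt-liver, Tlr1 (-1.19, SE 0.32), Tlr9 (-1.10, SE 0.32) and Tlr3 (-0.97, SE 0.29) were lower in DIOSul, where 13.2% of all genes were called. Leaving out ConSul replicate 3 left 0 of these 3 calls, and leaving out ConSul replicate 4 left 1. The interaction of diet and drug had 0 calls (2.22% of all genes). Macrophage markers moved along here too, with 6 of 8 higher in ConSul than in Con, and the macrophage score was 0.379 to 1.034 in ConSul and -0.735 to 0.215 in Con tumors. The adipocyte score was 3.037 to 6.257 in ConSul and -3.899 to 3.495 in Con tumors. With either the macrophage score or the adipocyte and muscle scores in the model, no receptor was called in these comparisons. The macrophage score of ConSul tumors overlapped neither that of Con nor that of DIOSul tumors (-0.243 to 0.291). Its model therefore cannot decide why the calls were lost.

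**Figure D4:**
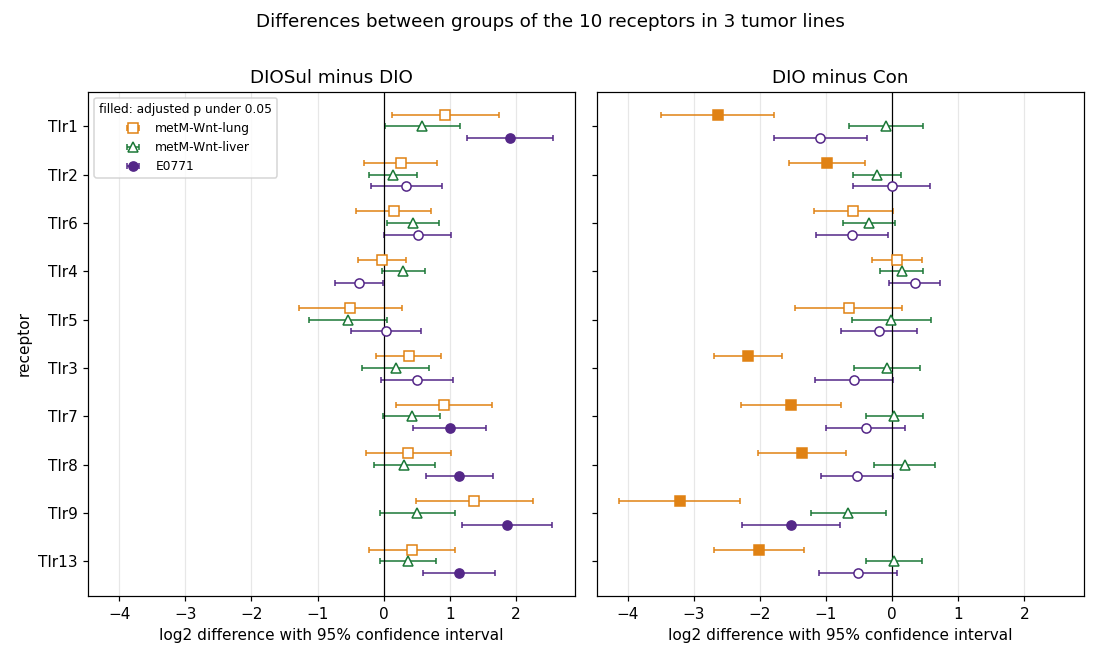
Log2 differences of the 10 receptors (points, with 95% intervals as bars) for DIOSul minus DIO and for DIO minus Con in each tumor line. Filled points have a limma adjusted p under 0.05, which applies to 5 receptors for DIOSul minus DIO in E0771, to Tlr9 for DIO minus Con in E0771, and to 7 receptors for DIO minus Con in metM-Wnt-lung, where the Con arrays have the wider spread.

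Whether the effects differed between lines was tested on all 79 arrays. For DIOSul against DIO, no receptor differed between metM-Wnt-lung and E0771 (0.497% of all genes called), between metM-Wnt-liver and E0771 (0.692%) or between metM-Wnt-lung and metM-Wnt-liver (0%, with 718 genes at an unadjusted limma p under 0.05). The Tlr9 effect in metM-Wnt-liver less that in E0771 was -1.36 (95% interval -2.38 to -0.34, limma adjusted p = 0.251). The Tlr4 effect differed by 0.67 (0.20 to 1.14, limma adjusted p = 0.206), being negative in E0771 and positive in metM-Wnt-liver. With array weights 3 receptors were called for metM-Wnt-liver less E0771, so that this count depends on the weighting. The share of all genes called with those weights was not kept. For DIO against Con, 3 receptors differed between metM-Wnt-lung and E0771 (Tlr3, Tlr9 and Tlr13, 6.72% of all genes called), 0 between metM-Wnt-liver and E0771 (0.0615%) and 6 between metM-Wnt-lung and metM-Wnt-liver (11.5%). The comparisons with calls contain the metM-Wnt-lung Con arrays.

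The tumor lines were compared next. Averaged over the 4 groups, which include the arrays of wider spread, 8 receptors were higher in metM-Wnt-lung than in E0771, where 63.1% of all genes were called, and 9 were higher in metM-Wnt-liver than in E0771, where 62.8% were. With so many genes different, these counts say little about the receptors as a family, and the sizes are given instead. Sizes with only DIO and DIOSul arrays, which hold none of the arrays of wider spread, are set beside them. Tlr2 differed most, by 2.33 in metM-Wnt-lung tumors (SE 0.13) and 2.41 in metM-Wnt-liver (SE 0.13), a signal 5.02-fold and 5.32-fold that of E0771, and with only DIO and DIOSul arrays by 1.95 and 2.24. Tlr6 followed with 1.76 (SE 0.13) and 2.15 (SE 0.13), or 1.56 and 2.04 with only DIO and DIOSul arrays. Tlr4 differed by 1.21 (SE 0.09) and 1.20 (SE 0.09), or 1.21 and 1.29 with those arrays alone, and every metM-Wnt set mean of these 3 receptors lay above every E0771 set mean.

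Tlr7 was higher by 1.45 in metM-Wnt-lung (SE 0.15) and 1.74 in metM-Wnt-liver (SE 0.16), and Tlr13 by 1.14 (SE 0.14) and 1.46 (SE 0.15). With only DIO and DIOSul arrays these were 1.16 and 1.83 for Tlr7, and 0.69 and 1.39 for Tlr13. The smallest called difference was that of Tlr1 in metM-Wnt-lung at 0.43 (SE 0.18, limma adjusted p = 0.0351), and it turned to -0.15 with only DIO and DIOSul arrays (limma adjusted p = 0.647). In metM-Wnt-liver, Tlr1 (0.69, SE 0.19) and Tlr9 (0.46, SE 0.20) were not called with those arrays alone (0.48 and 0.37). Tlr5 was called in neither line (0.00, SE 0.17, and 0.30, SE 0.17). Between metM-Wnt-lung and metM-Wnt-liver, 3 receptors were called (17.3% of all genes), with Tlr3 higher by 0.53 (SE 0.14) and with differences of -0.39 for Tlr6 (SE 0.14) and -0.47 for Tlr8 (SE 0.15). With only DIO and DIOSul arrays the calls of Tlr3 (0.22) and Tlr6 (-0.48) between those lines were lost, and Tlr8 kept its call (-0.79).

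Of the macrophage markers 7 of 8 were higher in each metM-Wnt line than in E0771. For the comparisons between lines the macrophage score was the mean of the markers without centring on the line. With that score in the model Tlr2 stayed higher, by 1.53 in metM-Wnt-lung tumors and 1.35 in metM-Wnt-liver tumors. Tlr4 stayed higher by 0.88 and 0.75, and Tlr6 by 1.05 and 1.20, all called. Tlr7, Tlr8 and Tlr13 were not called in that model, and Tlr1 was lower than in E0771, with differences of -1.03 in metM-Wnt-lung tumors and -1.25 in metM-Wnt-liver tumors, as was Tlr9 in metM-Wnt-liver tumors (-1.11). With the score in the model, Tlr1, Tlr8 and Tlr13 thus changed sign in both metM-Wnt lines, and Tlr7 and Tlr9 in metM-Wnt-liver tumors. Tlr2, Tlr4 and Tlr6 did not. Which cells of the tumors carry Tlr2, Tlr4 and Tlr6 was not tested.

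Within sets, the receptors varied together to different degrees. After each array was set against the mean of its own set, 44 of the 45 pairs of receptors had a positive Pearson correlation over the 79 arrays. Tlr7 and Tlr13 had the highest (r = 0.860), followed by Tlr7 and Tlr8 (0.807), Tlr8 and Tlr13 (0.783) and Tlr1 and Tlr13 (0.769). The lowest was that of Tlr4 and Tlr9 (-0.022). These are descriptions over arrays that share their normalization, and carry no test.

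**Figure D5:**
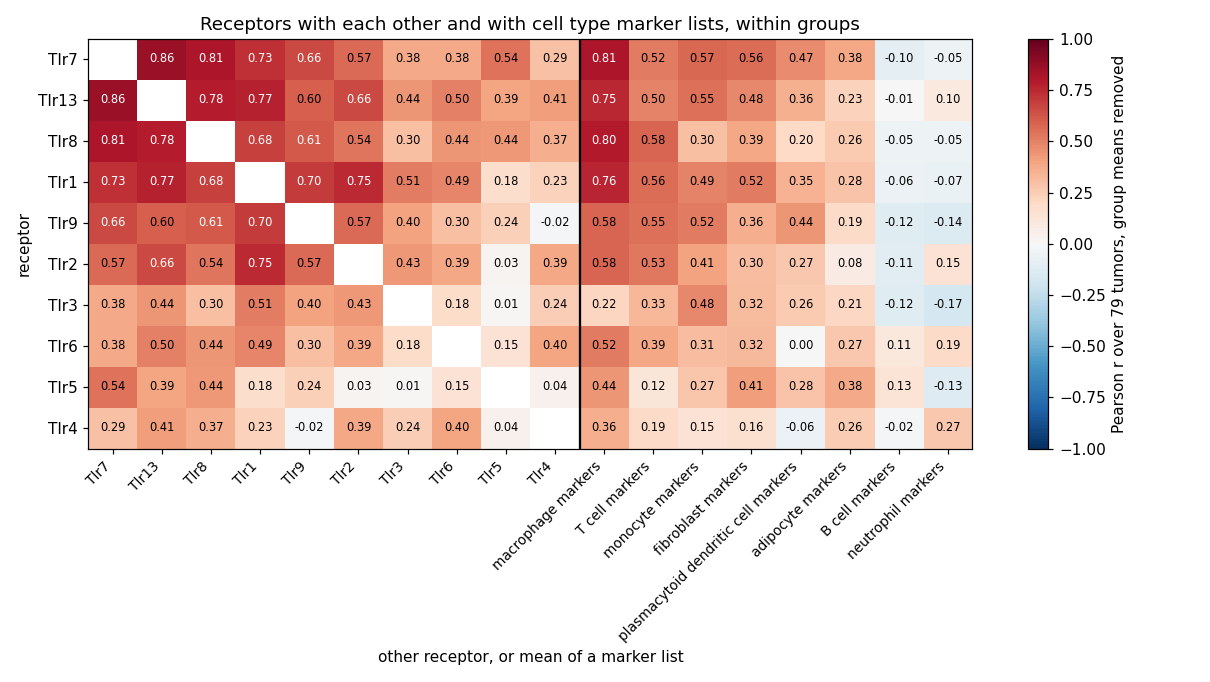
Pearson correlation of each pair of receptors, and of each receptor with the means of cell type marker lists (columns on the right), over the 79 arrays after the mean of each of the 12 sets was removed (color scale from low to high r). Among receptor pairs the highest values are those among Tlr7, Tlr8 and Tlr13, with 0.860 between Tlr7 and Tlr13, followed by that of Tlr1 and Tlr13. The lowest value of a receptor pair is that of Tlr4 and Tlr9 (-0.022).

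The macrophage score was closest to Tlr7, Tlr8, Tlr1 and Tlr13. Within sets, its correlation was 0.812 with Tlr7, 0.795 with Tlr8, 0.758 with Tlr1 and 0.752 with Tlr13. It was 0.584 with Tlr2, 0.579 with Tlr9, 0.519 with Tlr6 and 0.441 with Tlr5. Tlr4 (0.363) and Tlr3 (0.218) had the weakest relation, and Tlr3 was closest to the monocyte score (0.481). The B cell score had correlations between -0.12 and 0.134 with the 10 receptors. What part the share of macrophages in the tissue has in these values was not tested.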

How the data were processed

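Gene expression in 79 whole mammary tumors was measured with Clariom S Mouse HT arrays from Affymetrix. Values as deposited were log2 signals that the authors had normalized with SST-RMA in Transcriptome Analysis Console, which brings array distributions close together, so that a broad shift of many genes may be reduced. Of 22206 transcript clusters, 19572 had 1 gene symbol in the platform annotation, and 2634 without one were left out. Where several clusters named a gene (55 genes), the one with the highest mean was used, which gave 19505 genes. The precision is limited by the 4 to 8 arrays per set, and counts or depth do not apply.

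Groups were taken from the sample labels. Within each line 1 limma fit held the 4 groups, and line differences and differences between effects came from 1 fit of the 12 sets (limma 3.58.1, R 4.3.3). Benjamini-Hochberg adjustment ran over all 19505 genes, with calls at 0.05. The 10 receptors, the pathway and marker lists and the comparisons were chosen with earlier results of these data known. The text names all 10 receptors, up to 4 called genes per list and comparison with the smallest adjusted p, and the 3 genes most like each receptor. Marker scores are means over a list after centring on the line. In the comparisons between lines, the macrophage score in the model was the mean of the markers without centring. Some listed genes, such as Irak1, Irak4, Traf3, Chuk, Nfkb1, Il12b, Cd68, Ly6g and Pdgfra, were not analysed here.

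The fits were tested on simulated data built from these arrays. Noise was normal and independent between genes, with the same SD in all groups of a line for a given gene. The run therefore does not cover unequal spreads between groups or genes that vary together. For DIO against Con (lines in the order E0771, metM-Wnt-lung, metM-Wnt-liver), 74, 68 and 77 of 100 genes with a true log2 change of 1 passed, as did 95, 95 and 97 of 100 with a true change of 2, and false calls among 19305 unchanged genes numbered 6, 13 and 4.

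Alternatives were array weights, trended robust variances, quantile normalization, the mean over a gene's transcript clusters, leaving out genes under the median signal, a fit of only the 2 groups compared or of all lines, marker scores as covariates, the mouse number as a block, and each array left out in turn. Leaving out arrays with a skeletal muscle score above 2 or a skin keratinocyte score above 1, and the comparisons of DIO with ConSul (metM-Wnt-lung) and of DIOSul with Con (metM-Wnt-liver), were added after the data had been seen. Mouse numbers recur between groups, but tumors with the same number did not deviate together (mean correlation -0.00692, 0.043 and -0.0116, lines in the same order), so no pairing was used. Promoters were the 250 bases before the start in RefSeq, build GRCm38.p6.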

Additional observations from a re-analysis of the deposited data

Results flagged for a closer look

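In 120 sets of one receptor in one group, 3 held a tumor far from the others by Dixon's criterion, which chance meets in about 1 of 20 groups. Tlr3 was 13.72 in metM-Wnt-liver DIOSul replicate 7, where the other tumors of that group had 12.46 to 12.98. Tlr3 was 11.8 in metM-Wnt-liver DIO replicate 3, where the others had 12.81 to 13.09. Tlr13 was 10.61 in E0771 Con replicate 4, where the others had 11.92 to 12.4.

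The effect of sulindac differed between obese and lean mice in metM-Wnt-lung for 5 receptors, where 8.99% of all genes were called. The effect in obese mice less that in lean mice was 2.52 for Tlr1 (SE 0.58, limma adjusted p = 0.00851), 2.09 for Tlr3 (SE 0.35, limma adjusted p = 0.000701), 1.62 for Tlr7 (SE 0.52, limma adjusted p = 0.0497), 2.75 for Tlr9 (SE 0.63, limma adjusted p = 0.00806) and 1.87 for Tlr13 (SE 0.47, limma adjusted p = 0.0136). All 5 contain the metM-Wnt-lung Con arrays, whose wider spread cannot be told apart from the group. With the adipocyte and muscle scores, or with the macrophage score, 0 of the 5 calls remained.

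The effect of diet, DIO against Con, differed between lines. Of all genes, 6.72% were called for metM-Wnt-lung less E0771 and 11.5% for metM-Wnt-lung less metM-Wnt-liver. In metM-Wnt-lung less E0771 it was -1.6 for Tlr3 (SE 0.38), -1.68 for Tlr9 (SE 0.54) and -1.49 for Tlr13 (SE 0.41), with limma adjusted p-values of 0.00693, 0.0453 and 0.0175. In metM-Wnt-lung less metM-Wnt-liver it was -2.55 for Tlr1 (SE 0.51), -2.11 for Tlr3 (SE 0.38), -1.56 for Tlr7 (SE 0.43), -1.56 for Tlr8 (SE 0.40), -2.55 for Tlr9 (SE 0.54) and -2.03 for Tlr13 (SE 0.41), with limma adjusted p-values between 0.000164 and 0.0111. The same metM-Wnt-lung Con arrays enter each of these values.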

How the results depend on the processing

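Over all alternatives, 1296 values of single called receptors were recomputed. Of these, 1139 kept their direction and call, 138 kept their direction and lost the call and 19 changed sign. Fits short of a single array gave 785 of the values, of which 735 kept both, so they dominate the total. Array weights kept 57 of 59 values and quantile normalization 57 of 59. The macrophage score kept 11 of 50, while 21 lost only the call and 18 changed sign. The adipocyte and muscle scores kept 6 of 30, and exclusion of tumors with a high muscle or keratinocyte score kept 11 of 30.

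Number of receptors called. The share of all genes called was not kept for any alternative fit, so a changed count may not be particular to the receptors. For E0771 DIO against Con (1), array weights gave 5, genes above the median signal 2 and the macrophage score 0. For E0771 DIOSul against DIO (5), the macrophage score gave 0 and leaving out arrays high in muscle or skin genes gave 3. For the E0771 interaction (0), array weights gave 2. For metM-Wnt-lung DIO against Con (7), the adipocyte and muscle scores gave 1 and the macrophage score 1. For metM-Wnt-lung ConSul against Con (4), only the 2 groups gave 8, the adipocyte and muscle scores 0, the macrophage score 1 and leaving out arrays high in muscle or skin genes 1. For the metM-Wnt-lung interaction (5), the adipocyte and muscle scores gave 0, the macrophage score 0, the B cell score 3 and leaving out those arrays 0. The last of these fits held only 2 DIOSul arrays of metM-Wnt-lung. For metM-Wnt-lung DIO against ConSul (1), only the 2 groups, the adipocyte and muscle scores, and leaving out those arrays each gave 0. For metM-Wnt-liver ConSul against Con (4), the adipocyte and muscle scores gave 0, the macrophage score 0, the B cell score 2 and leaving out those arrays 1. For metM-Wnt-liver DIOSul against ConSul (3), the adipocyte and muscle scores gave 0, the macrophage score 0, the B cell score 1 and leaving out those arrays 0. For metM-Wnt-lung against metM-Wnt-liver (3), the macrophage score gave 1. For the diet effect in metM-Wnt-lung less E0771 (3), array weights gave 6. For the effect of DIOSul against DIO in metM-Wnt-liver less E0771 (0), array weights gave 3.

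With the mouse number as a replicate block, metM-Wnt-liver ConSul against Con had 2 calls, metM-Wnt-liver DIOSul against ConSul had 2 and metM-Wnt-lung ConSul against Con had 5, and the other counts were within 1.5 times of those without it.

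With each array left out in turn, the counts ranged over 1 to 2 (E0771 DIO against Con), 4 to 5 (E0771 DIOSul against DIO), 0 to 2 (E0771 interaction), 7 to 7 (metM-Wnt-lung DIO against Con), 3 to 6 (metM-Wnt-lung ConSul against Con), 4 to 6 (metM-Wnt-lung interaction), 0 to 1 (metM-Wnt-lung DIO against ConSul), 3 to 5 (metM-Wnt-liver ConSul against Con) and 0 to 4 (metM-Wnt-liver DIOSul against ConSul). The E0771 interaction had 1 call without Con replicate 4, 2 without ConSul replicate 1 and 2 without DIO replicate 4. The other comparisons within lines stayed at 0.

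The sign changed with the macrophage score for E0771 DIOSul against DIO in Tlr7 (-0.46) and Tlr13 (-0.14), for metM-Wnt-lung DIO against Con in Tlr2 (0.42), Tlr7 (0.50) and Tlr8 (0.61), for metM-Wnt-lung ConSul against Con in Tlr1 (0.24) and Tlr9 (0.46), for the metM-Wnt-lung interaction in Tlr7 (-0.43) and Tlr13 (-0.0214), and for metM-Wnt-liver ConSul against Con in Tlr8 (-0.15). It changed for metM-Wnt-lung against E0771 in Tlr1 (-1.03), Tlr8 (-0.25) and Tlr13 (-0.00519), and for metM-Wnt-liver against E0771 in Tlr1 (-1.25), Tlr7 (-0.017), Tlr8 (-0.17), Tlr9 (-1.11) and Tlr13 (-0.0639). With only DIO and DIOSul arrays, Tlr1 in metM-Wnt-lung against E0771 was -0.15. The cause was not tested.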

Other observations

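Tlr11 and Tlr12, the mouse receptors for profilin of protozoan parasites, are outside the 10 receptors and moved in metM-Wnt-lung. Tlr11 was lower in DIO than in ConSul tumors (-1.78, SE 0.30, limma adjusted p = 0.00132), as was Tlr12 (-1.38, SE 0.35, limma adjusted p = 0.0365). Both were higher in ConSul than in Con tumors of that line, a comparison that uses the Con arrays of wider spread, by 1.24 for Tlr11 (SE 0.31) and 1.80 for Tlr12 (SE 0.37), whereas the 4 receptors called there among the 10 were lower in ConSul.

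The genes whose signal was most like that of each receptor were taken over the 79 arrays after each line was centred on its mean. Tlr1 was most like Ptprc, the leukocyte common antigen CD45 (r = 0.924), Cybb, a subunit of the phagocyte oxidase (0.918), and Clec4a3 (0.918). Tlr9 was most like Clec4a3 (0.913), Ptpn6 (0.911) and Aif1 (0.910), Tlr13 like Cybb (0.892), Dock2 (0.891) and C3ar1 (0.889), Tlr7 like Apobec1 (0.909), Adap2 (0.875) and Frmd4b (0.873), and Tlr8 like Marchf1 (0.880), Rassf2 (0.870) and Rassf4 (0.866). Tlr3 was most like Sp100 (0.919), Ifi208 (0.907) and Ifih1, a cytoplasmic RNA sensor (0.904). The closest genes were less close for Tlr2 (Rel, 0.797, Marchf1, 0.742, and Birc3, 0.728), Tlr5 (Tcn2, 0.645, Pmp22, 0.606, and Jam3, 0.590), Tlr4 (Tmod3, 0.644, Nostrin, 0.618, and Ptbp3, 0.613) and Tlr6 (Id2, 0.634, Fli1, 0.626, and Ncf1, 0.618). With the group means removed as well, the r of the closest gene was 0.854 for Tlr1, 0.833 for Tlr3, 0.843 for Tlr9 and 0.678 for Tlr4. These are descriptions over arrays with a common normalization, and carry no test.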
